A study of Mus musculus with 5 samples.

Results

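The Ifitm family comprises the genes of the interferon-induced transmembrane proteins, and it was examined here in whole colon of mice that had received an agonist of the IL-11 receptor. The 6 members taken were Ifitm1, Ifitm2, Ifitm3, Ifitm5, Ifitm6 and Ifitm10. These members were chosen by their values in the comparison of NT-3N with Control, so their levels and fold changes are given as a description, without a test. Of the 6 members, 5 had a probe whose accession matched a gene symbol, with 6 probes in all, and 5 members had a probe that passed the filter on dim signal, among 17943 genes with a symbol that did. No probe was matched to Ifitm2, so its expression was not analysed here.

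IFITM proteins are small membrane proteins that sit in the plasma membrane and in endosomes and hinder the fusion of enveloped viruses with the cell. Interferons raise several of the genes through transcription factors of the STAT and IRF families, which bind the interferon-stimulated response element (ISRE) and the gamma-activated site (GAS). IL-11, by contrast, signals through its receptor chain and the shared subunit gp130 to JAK kinases and STAT3, which also binds GAS-type sequences.

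The arrays held total RNA from colon of wild-type C57BL/B6 mice (the strain as labelled), with 2 Control arrays and 3 NT-3N arrays, each taken to be 1 mouse. NT-3N, which the methods describe as a modified human IL-11, was injected intravenously and the colon was removed 3 hr later. The mice were 8 weeks old and the Control mice untreated, as the study describes them, and an effect of injecting and an effect of the agonist therefore cannot be told apart. The dose is not printed because labels and methods differ in its unit.

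The 5 arrays lay on 1 slide with 1 scan time. Between 70.58% and 72.9% of probes were well above background, and 0 spots were saturated. The 9 listed markers of colon epithelium, the labelled tissue, were well above background on every array, and 0 of them were called different between the groups by limma (adjusted p of at least 0.535), by the alternative local-pooled-error test or at an unadjusted p under 0.05. Without overlap between the groups, the transcription factor Cdx2 had a log2 fold change of -0.46 and the chloride exchanger Slc26a3 one of 0.53. Values below are log2 signal after quantile normalization, and a probe's level was never set against that of another probe. In RNA of whole tissue, fewer cells of a type and less RNA per cell cannot be told apart.

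The promoter windows of the 4 members whose groups of arrays did not overlap are shown because they differ in the interferon and STAT motifs they hold. They are RefSeq sequence of GRCm38.p6, 280 bases each, from 250 before the transcription start to 30 after it, printed 5′ to 3′ along the gene's own strand. Capitals mark matches to an ISRE core (GAAANNGAAA) or to a GAS (TTCNNNGAA), both searched on either strand.
Ifitm1 (chr7:140967826-140968105, plus strand): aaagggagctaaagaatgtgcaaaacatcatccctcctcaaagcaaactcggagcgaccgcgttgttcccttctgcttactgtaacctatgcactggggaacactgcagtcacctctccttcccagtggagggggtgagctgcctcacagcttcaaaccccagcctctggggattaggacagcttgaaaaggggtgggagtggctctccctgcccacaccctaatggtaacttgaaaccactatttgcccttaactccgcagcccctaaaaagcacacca
Ifitm3 (chr7:141010715-141010994, minus strand): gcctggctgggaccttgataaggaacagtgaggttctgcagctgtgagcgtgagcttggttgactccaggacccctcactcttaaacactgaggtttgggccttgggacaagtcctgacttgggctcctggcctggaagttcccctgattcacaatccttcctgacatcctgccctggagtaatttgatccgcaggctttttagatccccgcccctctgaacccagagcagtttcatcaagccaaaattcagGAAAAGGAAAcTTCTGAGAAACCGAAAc
Ifitm6 (chr7:141016863-141017142, minus strand): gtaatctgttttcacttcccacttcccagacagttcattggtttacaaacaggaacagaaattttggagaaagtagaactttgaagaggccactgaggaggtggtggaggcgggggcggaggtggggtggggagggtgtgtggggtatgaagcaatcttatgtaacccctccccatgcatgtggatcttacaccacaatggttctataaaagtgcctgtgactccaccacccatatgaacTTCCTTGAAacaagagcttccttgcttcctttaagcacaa
Ifitm5 (chr7:140950214-140950493, minus strand): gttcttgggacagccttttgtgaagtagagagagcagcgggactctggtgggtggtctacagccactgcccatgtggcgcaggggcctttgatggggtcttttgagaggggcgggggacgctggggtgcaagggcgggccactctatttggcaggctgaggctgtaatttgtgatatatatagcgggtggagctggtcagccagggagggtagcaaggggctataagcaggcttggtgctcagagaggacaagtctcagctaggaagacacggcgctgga

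The window of Ifitm3, the member best known for restricting influenza virus, held 2 ISRE cores, at bases 3 to 12 and 20 to 29 after the start, and a GAS at bases 14 to 22 that shares 3 bases with the second ISRE core. The window of Ifitm6 held a GAS from base -10 to base -2 and no ISRE core. The windows of Ifitm1 and Ifitm5 held neither motif in these letters, and the same was true of the 3 windows listed for Ifitm10. Ifitm2 held 1 ISRE core, GAAAAGGAAA, from base -46 to base -37, with the same 10 letters as the first core of Ifitm3. Among all 32851 windows of 300 bases, 3.44% held an ISRE core and 8.3% a GAS. Counted per gene, these shares were 3.99% and 9.55% of 27025 genes. Of the listed type I interferon-stimulated genes with a window, 13 of 27 held an ISRE core and 6 a GAS. Of the interferon gamma response genes, 11 of 17 held an ISRE core and 7 a GAS. Of the gp130-STAT3 response genes, 0 of 12 held an ISRE core and 2 a GAS. These matches describe letters in the windows and do not show binding.

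Ifitm1, which encodes an IFITM protein found largely at the cell surface, had the largest difference of the members. Its log2 signal was 11.03 and 11.09 on the Control arrays and 12.69, 12.86 and 12.93 on the NT-3N arrays. The lowest NT-3N value lay 1.60 above the highest Control value, while the values within each group were close together. The log2 fold change of 1.77 (standard error 0.099) corresponds to 3.40-fold on the linear scale. The gap was also present before any scaling between arrays, in processed signals of 1848 and 2265 in Control and 5826, 8598 and 8382 in NT-3N.

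Ifitm3 followed the same order of groups with a smaller difference. Its log2 signal was 12.59 and 12.95 in Control and 13.57, 13.42 and 13.63 in NT-3N. The Control arrays differed from each other by more than the NT-3N arrays did, and the groups did not overlap. This amounts to a log2 fold change of 0.77 (standard error 0.13), or 1.71-fold.

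Ifitm6, which has no counterpart among the human IFITM genes, had values of 6.17 and 5.97 in Control and 6.78, 6.60 and 7.03 in NT-3N. The groups were 0.43 apart at their nearest values, and their means differed by a log2 fold change of 0.73 (standard error 0.19), which was 0.39 with normexp background correction. Ifitm5 encodes the bone-restricted member known as BRIL, and its probe was dim. Ifitm5 had values of 3.48 and 4.28 in Control and 4.93, 5.18 and 5.15 in NT-3N, and the probe stood well above background on 3 of 3 NT-3N arrays but on 1 of 2 in Control. Its log2 fold change of 1.20 had a standard error of 0.32, and the value was 0.27 with normexp background correction.

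Ifitm10, a gene whose function is little known, was the member whose groups overlapped. Its brighter probe gave 5.83 and 4.97 in Control and 5.96, 5.41 and 5.44 in NT-3N. The Control values enclosed 2 of the 3 NT-3N values, and the log2 fold change of 0.20 was smaller than its standard error of 0.33. Leaving out Control replicate 2 turned its sign, to -0.23. The second Ifitm10 probe was not well above background on any array, with log2 signals between 2.23 and 3.51.

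**Figure D1:**
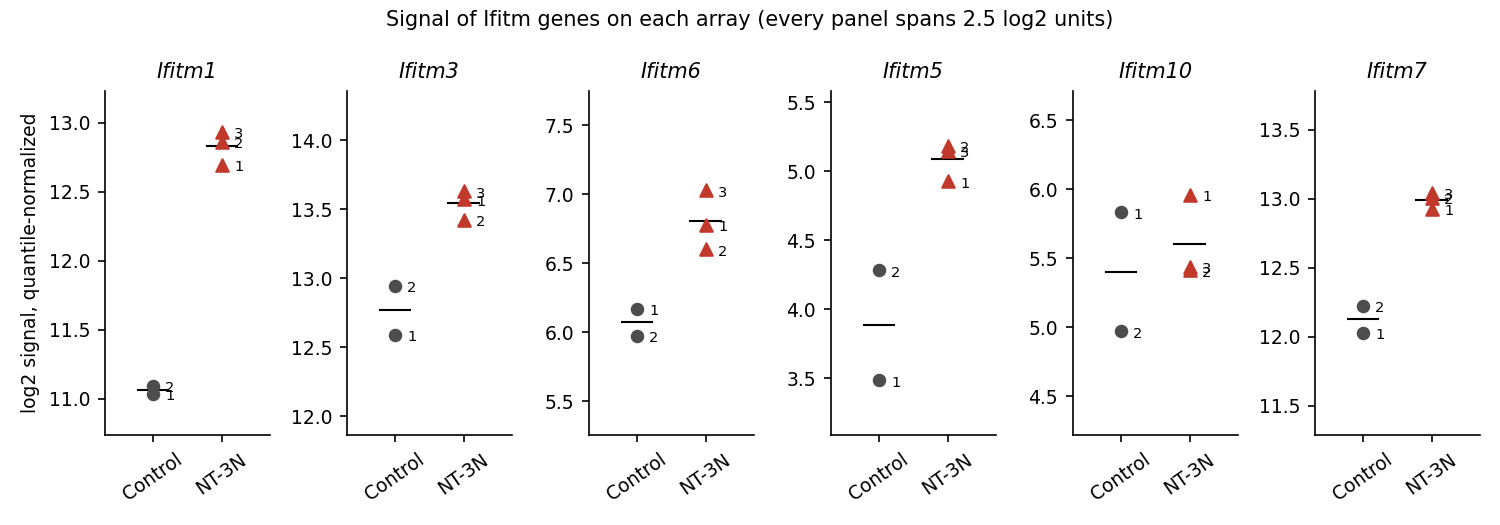
Log2 signal after quantile normalization (vertical axis) of 5 Ifitm members and Ifitm7 on each array, with Control as grey circles, NT-3N as red triangles, replicate numbers beside the points and a line at each group mean. Axes differ in position but each spans the same number of log2 units. The Ifitm1 groups lie 1.60 apart at their nearest values, and those of Ifitm10 overlap.

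In all, 4 of the 5 members that passed the filter were higher in NT-3N without overlap between the groups, where 13.5% of all 32918 features were, and 1 of them, Ifitm1, had a limma adjusted p under 0.05, where 0.125% of features were called higher. Both counts follow from the way the members were chosen, and nothing is read from them. The median log2 fold change of the 5 members was 0.77, against -0.02 over all features. In the lower direction, 14.8% of features showed no overlap and 0.0182% were called.

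The members differed among themselves in the size of the change. Taken within each array, the log2 change of Ifitm1 exceeded that of Ifitm3 by 0.83, 1.14 and 1.01 on NT-3N replicates 1, 2 and 3, a mean of 0.99 with a standard error of 0.16. The same difference was 1.04 with a standard error of 0.18 against Ifitm6. Ifitm3 and Ifitm6 differed in their change by 0.042 with a standard error of 0.22, which is within the spread between arrays. This near-equality depended on the background treatment. With normexp background correction the log2 fold change was 0.75 for Ifitm3 and 0.39 for Ifitm6. The difference between Ifitm1 and Ifitm10 was 1.57 with a standard error of 0.47. Because the genes are related in sequence, a probe could read more than 1 of them, which was not tested, since the probe sequences were not analysed here.

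**Figure D2:**
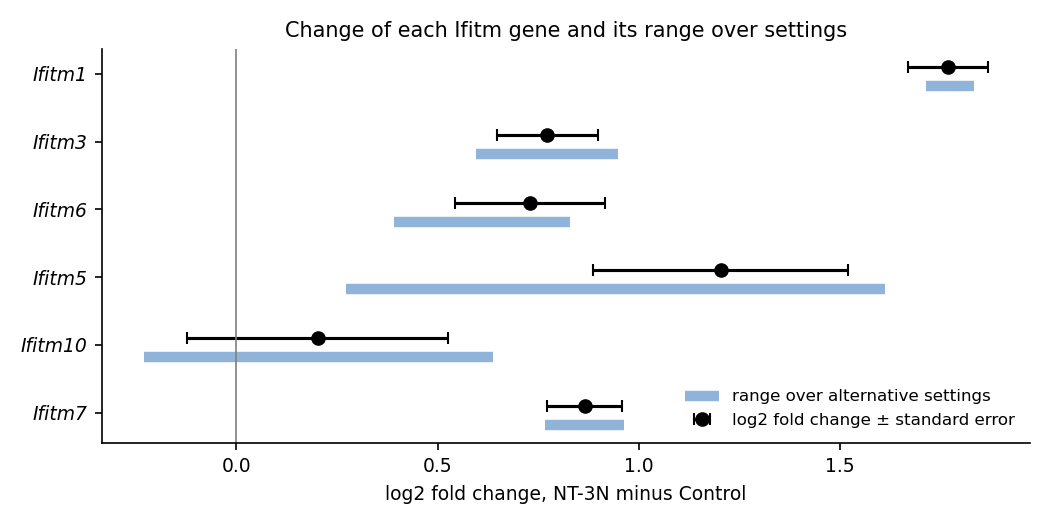
Log2 fold change of NT-3N minus Control (horizontal axis) for each Ifitm gene, as a point with its standard error, above a blue bar for the range of the value over the alternative settings. Ifitm1 stays between 1.71 and 1.83, whereas the bar of Ifitm10 runs from -0.23 to 0.64.

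Ifitm7, which is not one of the members, lies apart from the other Ifitm genes, on chromosome 16. Its log2 signal was 12.03 and 12.23 in Control and 12.93, 13.01 and 13.04 in NT-3N. The groups did not overlap, and limma gave a log2 fold change of 0.87 (standard error 0.093, adjusted p = 0.0478). That call held in 6 of 17 alternatives, with adjusted p between 0.000652 and 0.491, while the log2 fold change stayed between 0.77 and 0.96. It was lost without Control replicate 1 (adjusted p = 0.185), Control replicate 2 (0.06), NT-3N replicate 2 (0.187) or NT-3N replicate 3 (0.24). Relative to the Control mean of each gene, Ifitm1 exceeded Ifitm7 by 0.83, 0.92 and 0.96 on the NT-3N arrays, and Ifitm3 differed from it by -0.092 with a standard error of 0.11. The window of Ifitm7 held neither motif. Of the other CD225-domain genes listed, whose proteins share the membrane-inserted domain of IFITM proteins, 0 of 7 were called by limma, and 0 had an unadjusted p under 0.05. Prrt1, which encodes a protein of neuronal membranes, had a log2 fold change of -0.29 without overlap and an adjusted p of 0.604.

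On chromosome 7 the RefSeq order of the run was Ifitm5, Ifitm2, Ifitm1, a pseudogene, a long non-coding RNA, Ifitm3 and Ifitm6. The 4 tested genes of this run had log2 fold changes between 0.73 and 1.77. Of the 5 nearest tested genes on the Ifitm5 side, which were Sirt3, Psmd13, Cox8b, Nlrp6 and Pgghg, the values lay between -0.23 and 0.25. On the Ifitm6 side, B4galnt4 was the nearest, with a log2 fold change of 0.76 and a standard error of 0.30, and its signal was 4.51 and 4.82 in Control and 5.64, 5.67 and 4.95 in NT-3N. Further out, Pkp3, Sigirr, Ano9 and Gm33560 had values between -0.38 and 0.08. None of these 10 neighbours had a limma adjusted p under 0.05. At an unadjusted p under 0.05, 1 of them, B4galnt4, was higher, where 4.95% of all features were.

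**Figure D3:**
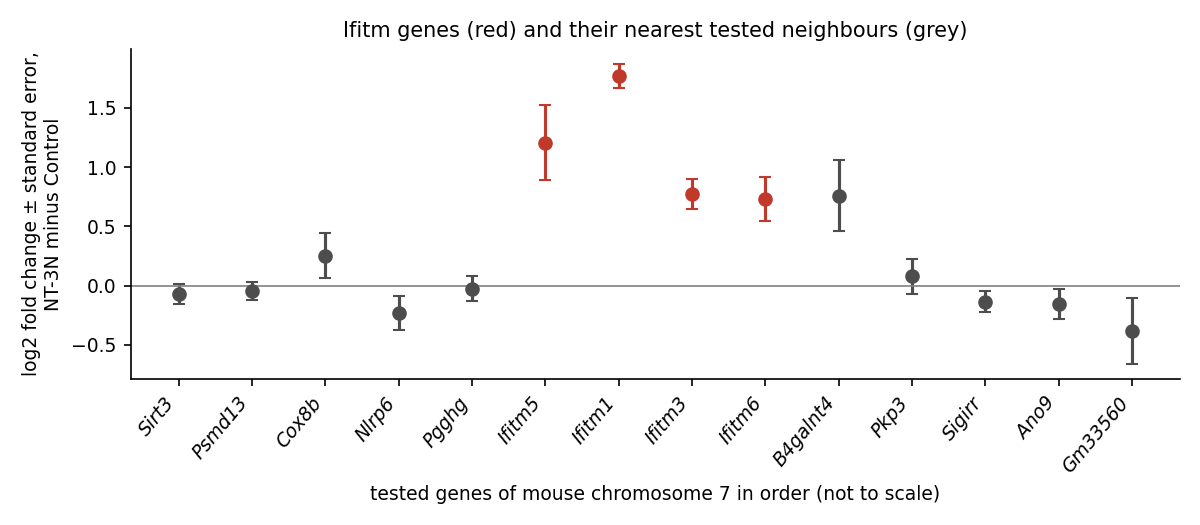
Log2 fold change with standard error (vertical axis) of the 4 tested Ifitm genes of the chromosome 7 run in red and of 5 tested genes on each side in grey, in chromosome order and not to scale (horizontal axis). The Ifitm genes lie between 0.73 and 1.77, and 9 of the 10 neighbours lie between -0.38 and 0.25.

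Type I interferon-stimulated genes, which share this regulation by interferons, mostly had lower values in NT-3N, though limma called none of them. Of the 38 listed type I interferon-stimulated genes, 36 were tested, and limma called 0 in either direction. At an unadjusted p under 0.05, 11 of these 36 were lower and 0 were higher, where 4.67% of all features were lower and 4.95% were higher. Their median log2 fold change was -0.80, with 34 genes below 0, against -0.02 over all features. Leaving out 1 array moved this median to between -1.15 and -0.44, with -0.44 without NT-3N replicate 2 and -0.52 without Control replicate 2. The local-pooled-error test, run as an alternative, called 19 of them lower. Per array, the median deviation from the Control mean was -0.12 on NT-3N replicate 1, -1.49 on replicate 2 and -0.78 on replicate 3, and -0.24 and 0.24 on the Control arrays. On NT-3N replicate 2, where this list was lowest, Ifitm1 stood 1.80, Ifitm3 0.66 and Ifitm6 0.53 above their Control means. For Ifitm3 and Ifitm6 these were the lowest values among the NT-3N arrays.

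The type I genes with the largest changes among those without overlap were Rsad2, Usp18, Ifit2 and Ifit1. Rsad2 encodes viperin, an antiviral enzyme, and its log2 signal was 10.67 and 11.74 in Control and 10.17, 7.85 and 9.47 in NT-3N. The NT-3N arrays were spread more widely than the Control arrays, and the log2 fold change of -2.05 (standard error 0.67) had an adjusted p of 0.427. Usp18, which removes ISG15 from proteins and restrains interferon receptor signalling, had a log2 fold change of -1.93 (adjusted p = 0.441). Ifit1 and Ifit2 bind viral RNA or restrain translation, and they had values of -1.76 and -1.80 with adjusted p of 0.49 and 0.46. Irf9, a subunit of the complex that binds ISREs, was one of the 2 genes with a value above 0, at 0.07.

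Of the 24 interferon gamma response genes listed, 23 were tested and limma called 0. At an unadjusted p under 0.05, 3 were higher and 2 lower, or 13% and 8.7%, where 4.95% and 4.67% of all features were. The local-pooled-error test called 2 of them higher and 1 lower, array quality weights gave 2 higher, and 3 were called higher without NT-3N replicate 1. The median log2 fold change was -0.014. Iigp1, an immunity-related GTPase, had 8.41 and 8.82 in Control and 10.77, 10.12 and 10.07 in NT-3N, a log2 fold change of 1.71 with an adjusted p of 0.0931. Gbp5 and Gbp2, guanylate-binding proteins that act on vacuoles of intracellular microbes, had log2 fold changes of 1.64 and 1.17 without overlap, with adjusted p of 0.192 and 0.111. Irgm1, a regulator of the same GTPases, went the other way with -0.93 and an adjusted p of 0.371. Without overlap between the groups, 4 of the 23 were higher (17.4%) and 2 lower (8.7%), where 13.5% and 14.8% of all features were. Nothing is read from these counts.

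Interferons, their receptors and their signalling parts had small differences. Of 19 listed genes 15 were tested, and limma and the local-pooled-error test called 0, with 1 at an unadjusted p under 0.05, which was the kinase Jak1 at 0.21 (adjusted p = 0.501). Ifnb1 and Ifng, which encode interferon beta and interferon gamma, did not pass the filter on dim signal, and Ifng was well above background on 1 of 5 arrays. The log2 fold change was 0.12 for Ifngr1, the ligand-binding chain of the interferon gamma receptor, and 0.08 for the transcription factor Irf8, and neither was called. Ifna2, an interferon alpha gene, had -0.47 with an adjusted p of 0.598.

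Genes for proteins that modify or bind IFITM proteins showed 0 calls among 11 tested, by limma, by the local-pooled-error test or at an unadjusted p under 0.05, while limma called 2 higher without Control replicate 1. Nedd4, a ubiquitin ligase that marks IFITM3 for turnover, had a log2 fold change of -0.10 with a standard error of 0.076. Setd7, a methyltransferase that acts on IFITM3, had -0.11 with a standard error of 0.083. Vcp, an ATPase that extracts ubiquitylated proteins, had 0.08, and Atp6v0b, a subunit of the proton pump that acidifies endosomes, had -0.15. None of these 4 had an adjusted p under 0.6. Cr2, a complement receptor of B cells on the same list, was at 7.31 on Control replicate 2, more than 1 log2 unit below the other 4 arrays. The B-cell marker Ms4a1 was at 4.95 and 6.53 in Control and had a log2 fold change of 3.65 (adjusted p = 0.0595). Ifitm1 was at 11.09 on Control replicate 2 and at 11.03 on Control replicate 1. The part of B cells in the Ifitm values was not tested.

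Genes known to respond to gp130 and STAT3 were higher in NT-3N on the same arrays. All 15 listed genes were tested, and limma called 7 of them higher and 0 lower, where 0.125% of features were called higher. Their median log2 fold change was 1.03, against -0.02 over all features. The list was chosen with earlier results of these data known, so nothing is read from this count or median. Serpina3n, an acute-phase serine protease inhibitor, had the largest change, 3.33 with a standard error of 0.12 and an adjusted p of 0.00266. Socs3, the feedback inhibitor of gp130 signalling, changed by 2.71 (adjusted p = 0.00874), Lrg1, a secreted acute-phase glycoprotein, by 2.11 (0.00683) and Osmr, the oncostatin M receptor chain, by 2.09 (0.00574). Lbp, which carries bacterial lipopolysaccharide, Cebpd, a transcription factor, and Stat3 itself changed by 1.80, 1.73 and 0.74, with adjusted p of 0.012, 0.0426 and 0.0434. Lcn2, Icam1, Il1r1 and Myc had log2 fold changes of 1.03, 1.08, 0.66 and 0.80 without overlap and were not called. The count of calls was 1 without NT-3N replicate 2 and 0 without NT-3N replicate 3, with medians of 1.00 and 1.01, and 5 to 7 without 1 of the other arrays. It was also 1 without a filter on dim probes, 1 with eBayes without trend and 0 with a replicate block (median 1.01).

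**Figure D4:**
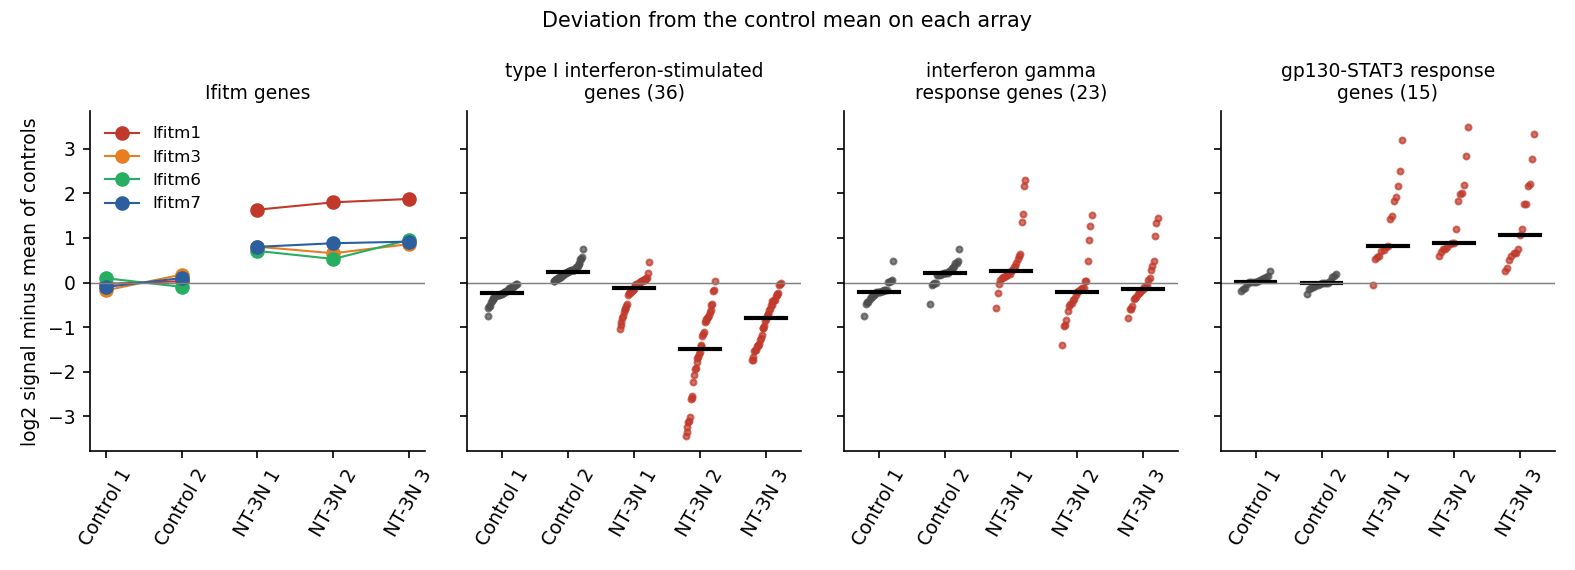
Log2 signal minus the mean of the Control arrays (vertical axis) on each array (horizontal axis), as lines for 4 Ifitm genes and as points with a median bar for 36 type I interferon-stimulated genes, 23 interferon gamma response genes and 15 gp130-STAT3 response genes; Control is grey and NT-3N red in the list panels. The type I median is -1.49 on NT-3N replicate 2, while Ifitm1, Ifitm3, Ifitm6 and Ifitm7 are at 1.80, 0.66, 0.53 and 0.88 there.

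The genes whose 5 log2 values were most like those of a member were found among 16730 genes above background on all arrays, each profile centred on its own mean, by the root mean square difference over the 5 arrays. The rule could be applied to Ifitm1, Ifitm3 and Ifitm6. For Ifitm1 they were Tifa, an adaptor of NF-kB signalling, at 0.055, then Ikzf4, a transcription factor of the Ikaros family, at 0.067, Ctps, the CTP synthase, at 0.104, Aldh1a3, a retinaldehyde dehydrogenase, at 0.108 and Gpr146, an orphan receptor, at 0.123. A second Tifa probe had a log2 fold change of 1.63, whereas further Ikzf4 probes had 1.92, -0.022 and -0.36. For Ifitm3 they were Cfap53, Adamts8, Snx10, Tmem266 and Fndc8, between 0.041 and 0.084. Of these, Cfap53 and Fndc8 were dim, with log2 signals of 3.88 to 4.94 and 3.93 to 5.01. The standard errors of their log2 fold changes were 0.27 and 0.26. A second Snx10 probe had a log2 fold change of 0.27 against 0.71 for the first. For Ifitm6 they were 1700001L05Rik, Pitpnc1, Sostdc1, Cyp7b1 and Tnip2, between 0.083 and 0.098. Second probes had 0.49 against 0.75 for Pitpnc1 and 0.17 against 0.62 for Cyp7b1. These likenesses rest on 5 arrays that fall into the same 2 groups and were not tested.

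Markers of cell types that could carry Ifitm transcripts were read on the same arrays. Of 8 neutrophil markers 5 were tested and 0 were called by limma. The 3 that were higher at an unadjusted p under 0.05, S100a8, S100a9 and Mmp9, were above background on 0 Control arrays and passed the filter through the NT-3N arrays alone, so nothing is read from this count or from the 1 called by the local-pooled-error test. S100a9, a calgranulin of neutrophils and monocytes, was not well above background on the Control arrays, at 1.56 and 1.58, and was at 8.58, 6.23 and 6.65 in NT-3N (adjusted p = 0.0619). S100a8, its partner, showed the same order, at 2.57 and 2.51 against 6.21, 4.28 and 5.15 (adjusted p = 0.222). Cxcr2, a defining receptor of neutrophils, was above background on 0 of 5 arrays and Ly6g had no matched probe. Csf3r, the receptor of granulocyte colony-stimulating factor, had a log2 fold change of -0.16. The summed signal of the 5 tested markers was 78030 and 77030 in Control and 64090 to 77500 in NT-3N. That sum came almost wholly from the Csf3r probe, at a log2 signal of 16.25 and 16.23 in Control, so it is no total for neutrophils. The median deviation of the markers from their Control means was 1.12, 1.40 and 0.57 on NT-3N replicates 1, 2 and 3. Since 3 of the 5 passed the filter through NT-3N alone, nothing is read from this deviation. Ifitm1 was lowest among the NT-3N arrays on replicate 1, where S100a8 and S100a9 were highest, and nothing is read from that order. The part of neutrophils in the Ifitm values was not tested.

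Of 7 monocyte and macrophage markers 0 were called by limma or the local-pooled-error test, with 0 at an unadjusted p under 0.05. They had a median log2 fold change of 0.02, with a value of -0.22 for the chemokine receptor Ccr2. Their summed signal was 35360 and 46140 in Control and 37170 to 45600 in NT-3N, most of it from the Ly6c2 probe (log2 signal 14.75 and 15.24 in Control). Their median deviation was -0.24, 0.15 and 0.07 on NT-3N replicates 1, 2 and 3. Fibroblast and endothelial markers, 6 of each, gave 0 calls by either test and medians of 0.05 and 0.15. The values without overlap were 0.32 for the fibroblast proteoglycan Dcn, the only one of these 12 at an unadjusted p under 0.05, and 0.10 and 0.24 for the endothelial adhesion genes Pecam1 and Cdh5. Of 6 smooth muscle markers 0 were called by either test, but 5 were lower in NT-3N without overlap, where 14.8% of all features were, and 2 were lower at an unadjusted p under 0.05, where 4.67% were, with a median of -0.28 and values of -0.40 for Des and Actg2, -0.30 for Cnn1 and -0.25 for Tagln. For Ifitm5, osteoblast markers were read as well, and 2 of 6 were tested. Bglap, which encodes osteocalcin, was at 6.88 and 7.12 in Control and at 6.37, 6.81 and 6.85 in NT-3N, and Dmp1, a matrix protein of osteocytes, had a log2 fold change of -0.57; limma and the local-pooled-error test called neither, and neither had an unadjusted p under 0.05. Of the untested markers, Sp7 and Runx2 were above background on 1 of 5 arrays each, and Ibsp and Phex on 0.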

How the data were processed

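RNA of mouse colon was hybridised with Cy3 label to 5 single-colour Agilent arrays. The authors extracted spot intensity with Agilent Feature Extraction 11.0.1.1, and the deposited scanner files hold a background-subtracted intensity that was not scaled between arrays. The authors also deposited log2 values for 37380 probes, which matched quantile-normalized processed signal (correlation of at least 0.99998 on each array) and were used as an alternative.

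Control spots and outlier spots were left out (69 to 184 of 59305 spots per array), processed signal was log2-transformed, spots of a probe were averaged and arrays were quantile-normalized. Probes well above background on at least 2 of 5 arrays were kept, with values on both Control and at least 2 NT-3N arrays. Accessions were matched to RefSeq symbols of GRCm38.p6 (32994 of 56605 probes), and a gene was represented by its brightest probe, which left 32918 features. The array design names another build, so coordinates are given only for promoter windows of RefSeq. Groups came from the sample titles and were compared in R 4.3.3 with limma 3.58.1 (two-sided moderated test, variance trend on intensity). p-values were adjusted over all features after Benjamini and Hochberg, with a threshold of 0.05. A local-pooled-error test, named in the study's methods, served as an alternative. Other settings tried were the scaling, background correction, filter on dim signal, variance model, weights per array, a replicate block, the rule for several probes, the deposited values and leaving out 1 array at a time. Motif searches and plots used Python 3.11.15, pandas 2.3.3 and matplotlib 3.10.9.

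The members and gene lists were chosen with earlier results of these data known, so counts over a list are descriptions. From each list the text names genes with an adjusted p under 0.05 and up to 4 further genes above background on all arrays with the largest change without overlap; a few others were named after their values were seen, among them Irf9, Ifnb1, Ifng, Cr2, Dmp1, Sp7, Runx2, Ibsp, Phex and the neutrophil markers. Replicate numbers were checked for pairing: the deviations of same-numbered arrays correlated at 0.129 and 0.0357 across features, so the numbers were not taken to pair the arrays. Precision is limited by the small number of arrays.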

Additional observations from a re-analysis of the deposited data

How the results depend on the processing

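Over 17 alternatives the log2 fold change of Ifitm1 stayed between 1.71 and 1.83. That of Ifitm3 moved by more than the spread between arrays only when a Control array was left out (0.60 to 0.95). Ifitm5 was 0.27 and Ifitm6 0.39 with normexp background correction, and leaving out 1 array gave 0.81 to 1.61 for Ifitm5 and 0.61 to 0.83 for Ifitm6. Ifitm5 had a value in 15 alternatives, since 2 of them require signal above background on every array. Leaving out 1 array gave -0.23 to 0.64 for Ifitm10, with the sign turned without Control replicate 2. The median of the interferon gamma response genes ranged from -0.32 to 0.22 when 1 array was left out, and it was above 0 in 2 of these cases, with Control replicate 2 (0.22) or NT-3N replicate 2 (0.042) left out.

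Counts of called features depended on the settings. Against 41 higher and 6 lower, the counts were 2 and 0 without a filter on dim probes and 2 and 0 with eBayes without trend. They were 128 and 46 with array quality weights and 192 and 156 with the local-pooled-error test. They were 50 and 11 with the deposited log2 values, 50 and 13 with signal above background on all arrays and 54 and 15 with robust eBayes. With the replicate number as a block (replicate block) both counts were 0. Leaving out 1 array gave 0 to 112 higher and 0 to 16 lower. At an unadjusted p under 0.05, where 1629 were higher and 1538 lower, the local-pooled-error test gave 636 and 622, array quality weights gave 2464 lower, and leaving out 1 array gave 990 to 2492 higher and 877 to 2651 lower. Type I interferon-stimulated genes called lower numbered 0 in 16 of 17 alternatives and 19 with the local-pooled-error test. Slide and scan could not be used as a block, since the arrays share 1 of each. The cause of these shifts was not tested.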
